A study of Mus musculus with 6 samples.

Results

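The interleukin-6 (IL-6) family of cytokines, its receptors and its main signalling genes were described in cultured myoepithelial cells of the mouse lacrimal gland. Its 10 genes were Il6, Il11, Lif, Osm, Il6ra, Il6st, Lifr, Osmr, Stat3 and Socs3. They were listed by symbol, each was read at the probe set with only that symbol and the highest mean over the arrays, and all 10 were found among the 22180 named genes. The cells came from the exorbital lacrimal glands of female mice that were TSP1 null (3 arrays) or wild type of the strain C57BL/6J (3 arrays), and both groups were grown without treatment for about 2 to 3 weeks in medium with serum. TSP1 is thrombospondin-1, a secreted matrix protein encoded by Thbs1. Mice without it develop dry eye disease, so the question is how cells of null and wild-type glands differ. The labels give neither the animals' age, nor the strain background of the null mice, nor whether each array had a culture or an animal of its own, so p-values measure only the spread between these arrays.

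IL-6 family cytokines share a signalling receptor chain, gp130, which Il6st encodes. A ligand first binds its own receptor (the IL-6 receptor for IL-6), or pairs gp130 with a related chain (the LIF receptor or the oncostatin M receptor). Receptor-bound Janus kinases then phosphorylate the transcription factor STAT3, which enters the nucleus and switches on target genes, among them Socs3, whose product shuts the receptor off again. In glands and other epithelia the family is known for its part in inflammation, acute-phase responses and tissue repair.

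The values are log2 signals, in which a difference of 1 is a 2-fold difference, and every difference is TSP1 null minus wild type. With limma and Benjamini-Hochberg adjustment over all 22180 genes, 0 genes passed an adjusted p of 0.05 (0%), so 0 of the 10 family genes did, and the smallest adjusted p of any gene was 0.161. Without adjustment 4 of the 10 had a p under 0.05, namely Il6, Socs3 and Stat3 with higher means and Osm with a lower mean in the null group, where 10.6% of all genes tested had such a p. The same 4 were the members whose groups did not overlap, 3 higher and 1 lower in the null group, and 15.8% of all genes did not overlap (10.1% higher and 5.75% lower). Of the 10 genes 8 had a higher mean and 2 a lower mean in the null group (55.1% and 44.9% of all genes), and the median difference was 0.31, against 0.02 over all genes. This median was 0.56 without the first wild-type array and 0.20 without the second.

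Several features of the cultures bear on these values. Thbs1 itself had means of 12.92 ± 0.17 and 13.60 ± 0.13 (SD, n = 3) in the null and wild-type groups, and whether its probes lie in the disrupted part of the gene is not stated, so it checks the labels weakly. Of 10 measured myoepithelial markers Acta2, the smooth muscle actin, lay between 13.85 and 14.01 on the 6 arrays, while Mylk, the contractile kinase of myosin light chain, lay between 6.11 and 7.49. The basal keratin Krt14 lay between 5.78 and 6.35 in the null group and between 4.93 and 5.52 in the wild-type group, a difference of 0.89 (SE 0.20), and Krt17 differed by 0.82 (SE 0.23), both without overlap. Of the 10 markers 7 had higher and 3 lower means in the null group (55.1% and 44.9% of all genes). Without overlap 3 of the 10, Krt14, Krt17 and Trp63, lay higher and 0 lower (10.1% and 5.75% of all genes). The median difference of the 10 was 0.19, and Acta2 differed by -0.05. The part of the Krt14 and Krt17 differences in the values of the family was not tested. The epithelial transcription factor gene Trp63, between 4.47 and 4.93, lay below the median of the named genes on all arrays. The wild-type signals of Krt14 and Krt17 lay below it too. Fibroblast and macrophage markers were also present. Col1a1, which encodes a chain of type I collagen, lay between 12.56 and 13.53, and the macrophage lysosomal gene Cd68 between 9.66 and 12.99, with the myeloid adaptor gene Tyrobp between 6.86 and 10.50. Of 20 macrophage markers all 20 had lower means in the null group (44.9% of all genes). Of the 20, 13 were lower with an unadjusted p under 0.05 by limma (4.27% of all genes). Only 3 were lower without overlap and 0 higher (5.75% and 10.1% of all genes). The mean of the 20 per array ran from 7.37 to 9.81 in the null group and from 9.65 to 10.44 in the wild-type group. Of 8 endothelial markers 4 had higher and 4 lower means in the null group. Without overlap 0 lay higher and 2 lower (10.1% and 5.75% of all genes). Their mean per array was 5.04 to 5.28 in the null group and 5.15 to 5.79 in the wild-type group. The endothelial gene Emcn measured 3.70 on the first and 7.76 on the second wild-type array. The endothelial genes Tek (5.73) and Egfl7 (5.43) were instead lowest of the 6 arrays on the second wild-type array. Markers of neutrophils, mast cells and T lymphocytes had means of at most 4.39, 3.66 and 4.80 on any array. In RNA from a whole culture, fewer cells of a type and less RNA per cell cannot be told apart.

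Promoter sequence is shown for Il6 and Socs3, the ligand and the feedback gene with the smallest p values of the family, because both are textbook targets of inducible transcription factors. The windows are the 250 bases before the annotated start, from RefSeq on GRCm38.p6, printed 5′ to 3′ on the gene's strand, chr5:30012864-30013113 (plus strand) for Il6 and chr11:117969367-117969616 (minus strand) for Socs3, with motif matches in capitals.
Il6: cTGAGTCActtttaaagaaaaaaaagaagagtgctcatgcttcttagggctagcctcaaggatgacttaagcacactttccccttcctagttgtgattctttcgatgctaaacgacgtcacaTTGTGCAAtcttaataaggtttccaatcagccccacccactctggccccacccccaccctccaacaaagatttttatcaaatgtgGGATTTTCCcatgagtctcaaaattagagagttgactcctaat
Socs3: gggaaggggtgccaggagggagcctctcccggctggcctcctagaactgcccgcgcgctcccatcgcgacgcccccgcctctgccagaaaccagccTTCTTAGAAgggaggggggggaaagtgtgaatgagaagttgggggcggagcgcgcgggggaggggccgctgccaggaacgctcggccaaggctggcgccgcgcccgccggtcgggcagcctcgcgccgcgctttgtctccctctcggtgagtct

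Motifs were searched as fixed letters on both strands, with N for any base. They were TTCNNNGAA for STAT factors, TGANTCA for AP-1, GGNNTTTCC for NF-kappaB and TTGCNNAA for C/EBP factors, and no matches overlapped one another in the windows of these genes. In the Il6 window TGAGTCA starts 249 bases before the gene's start, TTGTGCAA (a C/EBP match on the other strand) 128 bases before it and GGATTTTCC 43 bases before it. The Socs3 window holds TTCTTAGAA, which starts 154 bases before the start, and none of the other 3 motifs. Of 10 family genes 9 had a window in the table, with 11 windows in all. The STAT motif occurred in 1 of the 11 windows, that of Socs3, against 7.02% of 32851 promoter windows of the same length. The AP-1 motif occurred in 3 (Il6, Lif and 1 of the 2 windows of Il11), against 6.75%, the NF-kappaB motif in 1 (Il6), against 4.93%, and the C/EBP motif in 1 (Il6), against 9.56%. A match is a description of the letters and not evidence of a bound site.

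**Figure D1:**
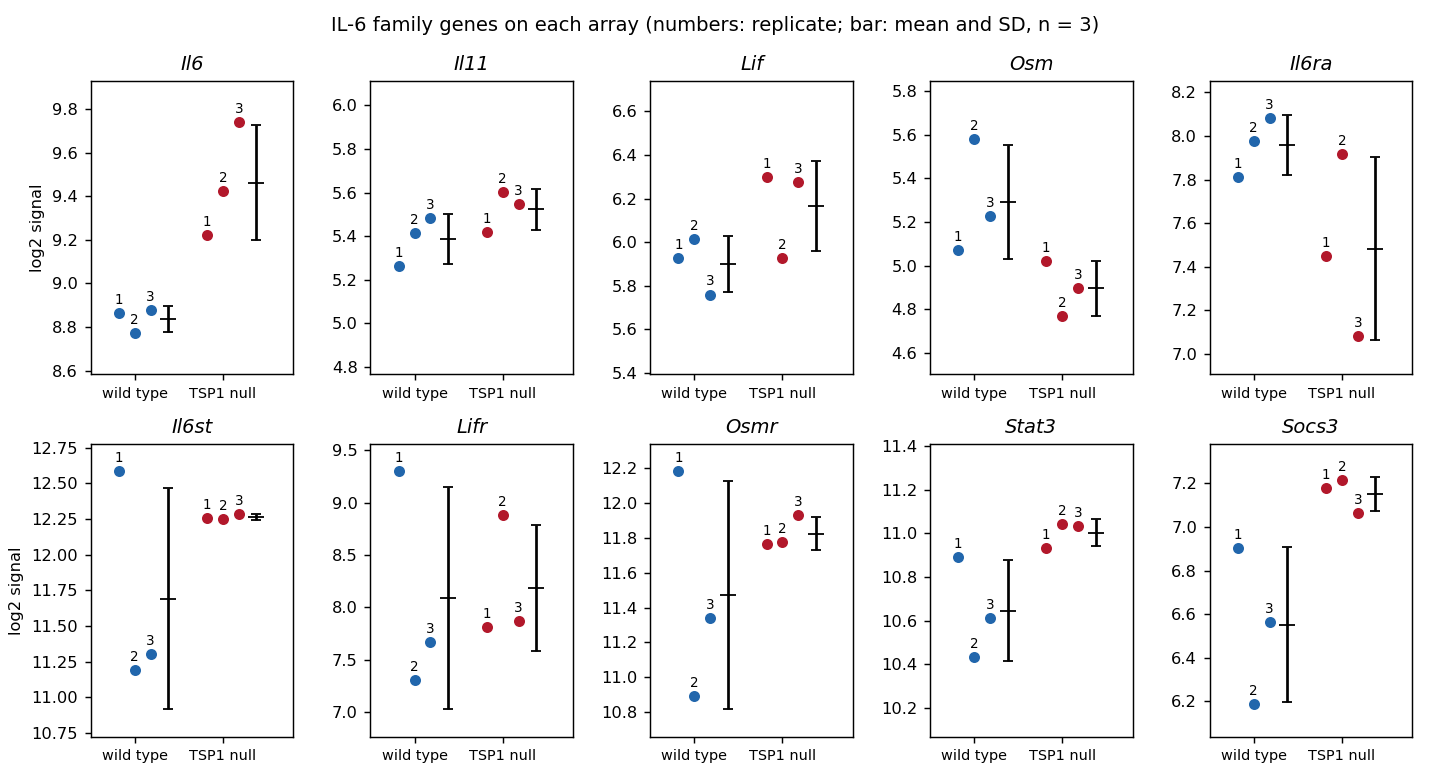
Log2 signal of each IL-6 family gene (y axis, with its own range per panel) on the wild-type (blue) and TSP1 null (red) arrays; the number at each point is the replicate and the bar is the group's mean and SD (n = 3). Il6, Stat3 and Socs3 lie higher and Osm lower on every null array than on any wild-type array, and the first wild-type array has the highest signals of Il6st, Lifr and Osmr.

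Among the ligands, Il6, which encodes the cytokine that gives the family its name, had the largest difference. Its signals were 9.22, 9.42 and 9.74 on the null arrays and 8.86, 8.77 and 8.88 on the wild-type arrays. Every null array lay above every wild-type array, and the wild-type values were close together while the null values were spread. The means were 9.46 ± 0.26 and 8.84 ± 0.06 (SD, n = 3), a difference of 0.62 (SE 0.15, 95% interval 0.28 to 0.97), or 1.54-fold. The unadjusted p was 0.00326 and the adjusted p by limma was 0.298. The difference ran from 0.48 without the third null array to 0.74 without the first. The third null array, where Il6 was highest, was also the array with the lowest macrophage marker mean (7.37). Over the 6 arrays Il6 and the macrophage marker mean had a Pearson r of -0.84, and the arrays share the group difference. The part of macrophage content in the Il6 difference was not tested.

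Lif encodes leukemia inhibitory factor, a ligand of the LIF receptor and gp130. It measured 6.30, 5.93 and 6.28 on the null arrays against 5.93, 6.01 and 5.76, so the second null array lay among the wild-type values. The difference was 0.27 (SE 0.14, 95% interval -0.06 to 0.59, adjusted p = 0.553 by limma), and 0.39 without the second null array. Il11 encodes interleukin-11, which signals through gp130 and its own receptor. Its signals were 5.42, 5.60 and 5.55 against 5.26, 5.42 and 5.48, with overlapping groups and a difference of 0.14 (SE 0.11, 95% interval -0.13 to 0.40), or 0.073 without the first wild-type array. The array medians of the named genes were 5.85 to 5.91, so Il11 and Osm were dim, and differences of dim probe sets are compressed by this kind of signal.

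Osm encodes oncostatin M, a cytokine made largely by macrophages and other myeloid cells. It read 5.02, 4.77 and 4.90 on the null arrays and 5.07, 5.58 and 5.23 on the wild-type arrays. All null arrays lay below all wild-type arrays, though the first null and the first wild-type array differed by little. The difference was -0.40 (SE 0.16, 95% interval -0.76 to -0.04), or 1.32-fold lower, with an unadjusted p of 0.0351 and an adjusted p of 0.441 by limma. It was -0.25 without the second wild-type array, the brightest for this gene. Macrophage markers also had lower means in the null group, and Osm and the macrophage marker mean had a Pearson r of 0.53 over the 6 arrays. The endothelial marker mean, like Osm, was highest on the second wild-type array (5.79), though Tek and Egfl7 of that list were lowest there. The part of macrophage or endothelial content in the Osm difference was not tested. Lif and Osm, which lie next to each other on chromosome 11 with 0 protein-coding genes between them, thus had mean differences of opposite sign, 0.27 and -0.40.

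Of the 4 receptor genes, none had an unadjusted p under 0.05 (10.6% of all genes had one). The groups of all 4 overlapped, and those of 15.8% of all genes did not. Il6ra, which encodes the ligand-binding IL-6 receptor, measured 7.45, 7.92 and 7.08 on the null arrays and 7.81, 7.98 and 8.08 on the wild-type arrays. The second null array lay within the wild-type range and the third was lowest. The difference was -0.47 (SE 0.21, 95% interval -0.96 to 0.01, adjusted p = 0.478 by limma), or 1.39-fold lower. Leaving out the second null array gave -0.69, and leaving out the third gave -0.27. Relative to its own 6-array mean, Il6ra stood at -0.27, 0.20 and -0.64 in the null group and at 0.09, 0.26 and 0.36 in the wild-type group. The macrophage marker mean stood at -0.40, 0.38 and -2.06 and at 0.22, 0.84 and 1.01, so both put the 6 arrays in the same order (Pearson r = 0.98 over 6 arrays, which share the group difference). The part of macrophages in the Il6ra signal was not tested.

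Il6st, the gene of gp130, was bright and very even on the null arrays, at 12.26, 12.25 and 12.29. In the wild-type group it measured 12.58, 11.19 and 11.30, so the first wild-type array lay above all null arrays and the other two well below them. The difference was 0.57 (SE 0.34, 95% interval -0.21 to 1.36, adjusted p = 0.594 by limma). Without the first wild-type array it was 1.02, with an adjusted p of 0.0742, and this single array moved the value by more than 1.5 times. Over the 6 fits with 1 array left out the difference was lowest, at 0.32, without the second wild-type array.

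Osmr encodes the oncostatin M receptor chain that pairs with gp130. It read 11.76, 11.77 and 11.93 against 12.18, 10.89 and 11.34, again with the first wild-type array on top and the other wild-type arrays lowest. The difference was 0.35 (SE 0.29, 95% interval -0.33 to 1.03), and it went from 0.06 without the second wild-type array to 0.71 without the first. Lifr encodes the LIF receptor chain, and lies beside Osmr on chromosome 15 with 0 protein-coding genes between them. Its signals were 7.82, 8.88 and 7.87 on the null arrays and 9.30, 7.30 and 7.67 on the wild-type arrays. The first wild-type and the second null array were far above the other 4, and the group difference of 0.10 (SE 0.52, 95% interval -1.11 to 1.31) had no stable sign. It was 0.70 without the first wild-type array and -0.30 without the second.

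**Figure D2:**
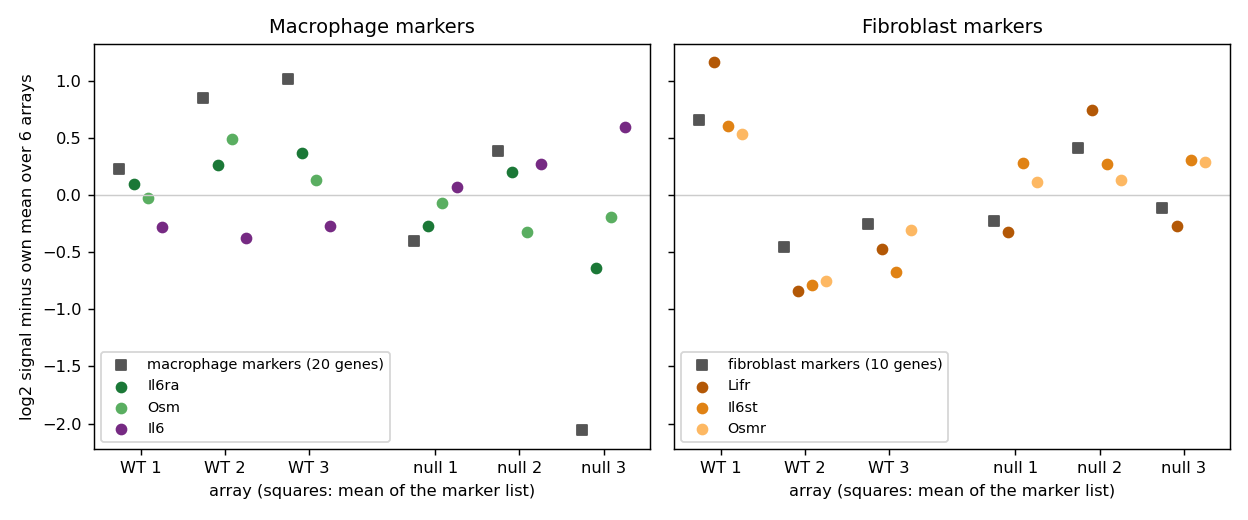
Log2 signal minus the item's own mean over the 6 arrays (y axis) on each wild-type (WT) and TSP1 null array, for Il6ra, Osm and Il6 beside the mean of 20 macrophage markers (left) and for Lifr, Il6st and Osmr beside the mean of 10 fibroblast markers (right); squares are marker means and circles single genes. Il6ra is lowest on the third null array (-0.64), where the macrophage markers stand at -2.06, and Lifr is highest on the first wild-type (1.16) and second null (0.74) arrays, where the fibroblast markers stand at 0.65 and 0.41.

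Fibroblast markers were not even over the arrays either. Their mean was 10.24 to 10.87 in the null group and 10.01 to 11.12 in the wild-type group, and in each group it was highest on the array that also had the highest Lifr, namely the second null array and the first of the wild-type arrays. Il6st and Osmr were highest of all on the first wild-type array too, but on the second null array they stood at 0.27 and 0.13 around their means, close to the other null arrays. Of the 10 fibroblast markers 5 had higher and 5 lower means in the null group, with a median difference of 0.05. The collagen genes Col1a1 (0.54, SE 0.15), Col1a2 (0.51, SE 0.11) and Col3a1 (1.03, SE 0.27) were higher in the null group without overlap. Each had an unadjusted p under 0.05, and 0 of the 10 were lower with such a p. Over all genes 6.28% were higher and 4.27% lower with such a p, and 10.1% were higher without overlap. The part of fibroblasts in the receptor signals was not tested.

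Both of the 2 signalling genes were higher in the null group without overlap (10.1% of all genes). Stat3, the transcription factor of the pathway, measured 10.93, 11.04 and 11.03 on the null arrays and 10.89, 10.43 and 10.61 on the wild-type arrays. All null arrays lay above all wild-type arrays, by little in the case of the first array of each group. The difference was 0.36 (SE 0.14, 95% interval 0.03 to 0.68), or 1.28-fold, with an unadjusted p of 0.0344 and an adjusted p of 0.437 by limma. With 1 array left out it ran from 0.25 to 0.48.

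Socs3, the feedback inhibitor whose promoter window holds the STAT motif shown above, read 7.18, 7.21 and 7.06 on the null arrays and 6.90, 6.19 and 6.57 on the wild-type arrays. The null arrays again lay entirely above the wild-type arrays, and the second wild-type array was lowest. The difference was 0.60 (SE 0.18, 95% interval 0.18 to 1.02), or 1.52-fold, with an unadjusted p of 0.0113 and an adjusted p of 0.354 by limma. It was 0.77 without the first wild-type array and 0.42 without the second. Socs3 was the only family gene with a second probe set of its own symbol. That dimmer probe set gave 5.61, 5.44 and 5.62 against 5.60, 4.89 and 4.97, so its groups overlapped at the first wild-type array, and its difference was 0.40.

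**Figure D3:**
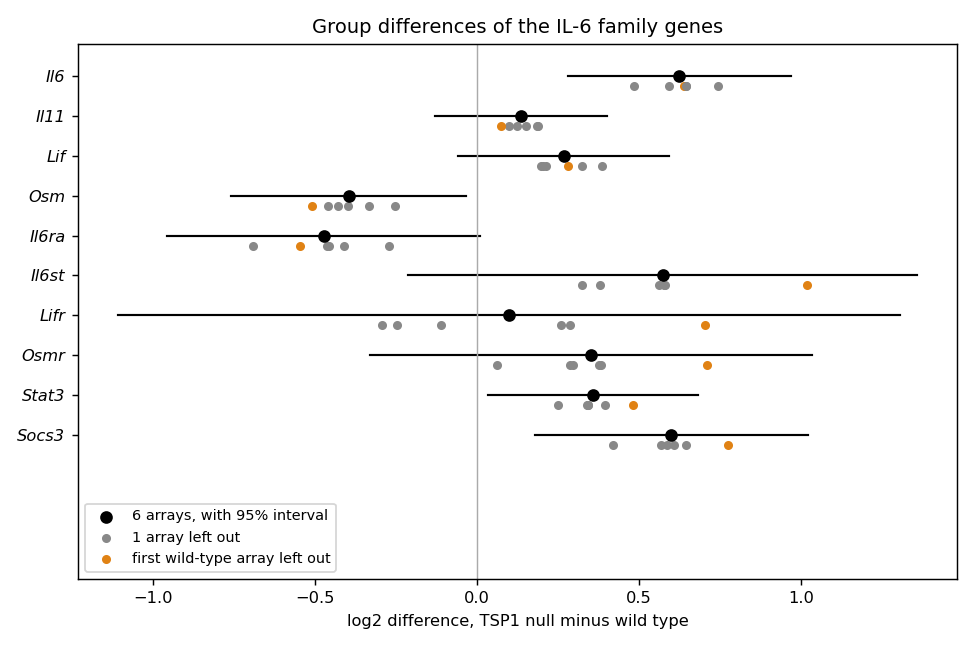
Log2 difference, TSP1 null minus wild type, of each IL-6 family gene (x axis), with its 95% interval from limma on 6 arrays (black) and the difference with 1 array left out (grey, or orange for the first wild-type array). The intervals of Il6, Osm, Stat3 and Socs3 exclude 0, and leaving out the first wild-type array moves Il6st from 0.57 to 1.02, Osmr from 0.35 to 0.71 and Lifr from 0.10 to 0.70.

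Across the members the first wild-type array therefore stood nearest to or above the null group for Il6st, Osmr, Stat3 and Socs3, whereas for Il6 it stood with the other wild-type arrays (8.86 against 8.77 and 8.88). The second wild-type array had the lowest signal of the 6 for Il6, Il6st, Lifr, Osmr, Stat3 and Socs3, and the highest for Osm. Without the first wild-type array 6 of the 10 genes had an unadjusted p under 0.05, where 12.3% of all genes did. With the third null, the second wild-type or the third wild-type array left out, 2 did (Il6 and Socs3 in each case), where 6.70% to 9.84% of all genes did.

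The other genes of the pathway came from 7 lists with 68 genes, 62 of them measured. With limma 0 of the 62 passed an adjusted p of 0.05. At an unadjusted p under 0.05 there were 11 with a higher mean and 2 with a lower mean in the null group, where 6.28% and 4.27% of all genes had one. Of the 62 genes 39 had a higher and 23 a lower mean, and the median difference was 0.10. The genes described next are the 2 of smallest p in each list, and those singled out beyond them were chosen after their values were seen.

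STAT3 targets held 7 of the 11 genes with a higher mean and an unadjusted p under 0.05, out of 24 measured, and 0 had a lower mean with such a p. In this list 16 had higher and 8 lower means (55.1% and 44.9% of all genes), with a median difference of 0.16. Fosl2, which encodes an AP-1 subunit, measured 9.97, 9.90 and 10.05 on the null arrays and 9.21, 9.47 and 9.27 on the wild-type arrays. These groups were well apart, at a difference of 0.66 (SE 0.12, 1.57-fold, adjusted p = 0.216 by limma), and with 1 array left out it was 0.60 to 0.73. Il4ra, the interleukin-4 receptor chain, read 10.29, 10.22 and 10.08 against 9.62, 9.76 and 9.45, without overlap and with a difference of 0.59 (SE 0.12, adjusted p = 0.275 by limma).

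The remaining 5 were Bcl3 (an IkappaB family regulator of NF-kappaB, 0.82, SE 0.22), Cebpd (a C/EBP transcription factor of the acute-phase response, 0.76, SE 0.26), Cebpb (a C/EBP factor that also acts on Il6, 0.41, SE 0.13), Pim1 (a serine/threonine kinase, 0.34, SE 0.14) and Hp. Hp encodes haptoglobin, an acute-phase protein that binds haemoglobin, and measured 7.00, 8.50 and 6.96 against 7.18, 4.96 and 5.57. Its first wild-type array lay within the null range, its difference was 1.58 (SE 0.61), and this ranged from 1.08 (second null array left out) to 2.22 (first wild-type array left out). Among the targets with no such p, Lbp, the lipopolysaccharide binding protein, was highest on the first wild-type (10.64) and second null (9.93) arrays, as Lifr was. Its difference of -0.44 (SE 0.72) had no stable sign, and ran from -1.05 (second null array left out) to 0.31 (first wild-type array left out).

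Among the other feedback genes, Socs2, a SOCS family inhibitor best known for restraining growth hormone signalling, measured 9.34, 9.31 and 9.61 on the null arrays and 9.11, 8.48 and 8.69 on the wild-type arrays. The groups did not overlap, and the difference was 0.66 (SE 0.18, adjusted p = 0.334 by limma). Its wild-type arrays stood in the same order as those of Socs3, with the first highest and the second lowest. Socs1, an inhibitor of Janus kinases, had 6.35, 5.94 and 6.28 against 6.12, 5.76 and 5.51, with overlap and a difference of 0.39 (SE 0.19), or 0.25 without the third wild-type array. Of 9 measured feedback genes 7 had higher means (55.1% of all genes), and 1 had an unadjusted p under 0.05 (10.6% of all genes).

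Of 9 kinases, STAT factors and adaptors, 7 had higher means (55.1% of all genes) and 2 had an unadjusted p under 0.05 (10.6% of all genes). Shc1, an adaptor that links receptors to the Ras pathway, read 9.80, 9.82 and 9.69 against 9.10, 9.51 and 9.25, a difference of 0.48 (SE 0.13, adjusted p = 0.335 by limma) without overlap. Jak1, the kinase most tied to gp130, read 11.66, 11.65 and 11.83 against 11.63, 11.29 and 11.29. It too had no overlap, by a narrow gap at the first wild-type array, and a difference of 0.31 (SE 0.13). Among 4 genes of receptor shedding, which releases soluble IL-6 receptor, Rhbdf1, a regulator of the protease ADAM17, had a difference of 0.39 (SE 0.11) with no overlap. Adam17 itself had -0.12 (SE 0.12), or -0.069 without the third wild-type array, with overlapping groups.

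**Figure D4:**
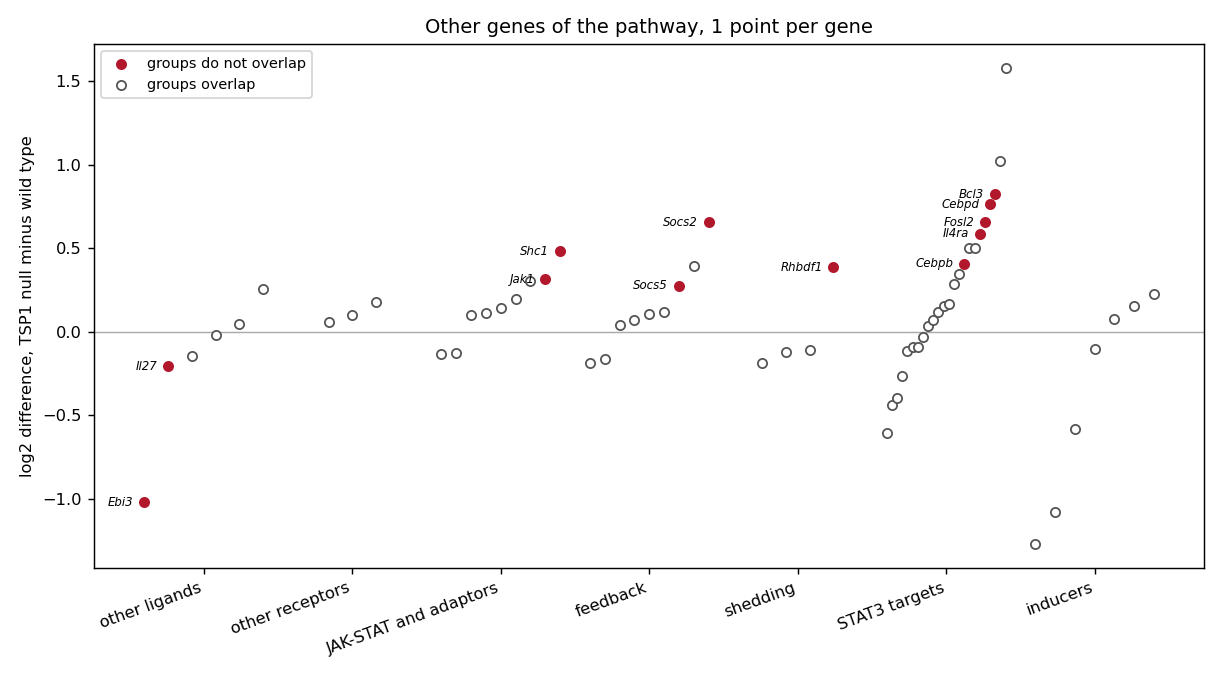
Log2 difference, TSP1 null minus wild type (y axis), of the 62 measured genes of the 7 pathway lists, 1 point per gene; filled, named points are genes whose 3 null and 3 wild-type arrays do not overlap. Those above 0 include Bcl3 (0.82), Cebpd (0.76), Fosl2 (0.66), Socs2 (0.66) and Il4ra (0.59), and Ebi3 (-1.02) and Il27 (-0.21) lie below 0.

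The other ligands and soluble partners went the other way for the subunits of interleukin-27. Ebi3, its soluble partner chain, measured 6.57, 6.57 and 5.76 on the null arrays and 7.07, 7.27 and 7.62 on the wild-type arrays. There was no overlap, and the difference was -1.02 (SE 0.25, 2.03-fold lower, unadjusted p = 0.00374, adjusted p = 0.307 by limma), or -0.75 without the third null array, which was lowest for Ebi3 and for the macrophage markers. The part of macrophages in it was not tested. Il27, the cytokine subunit, differed by -0.21 (SE 0.13) without overlap, or by -0.088 without the third wild-type array, and was named after its values were seen. Clcf1, a ligand of the ciliary neurotrophic factor receptor, had 0.26 (SE 0.16) with overlap, or 0.12 without the first wild-type array. Of the other receptors that use or resemble gp130, all 3 measured genes had overlapping groups (15.8% of all genes did not overlap). Il27ra, the interleukin-27 receptor, was at 0.18 (SE 0.15) and Il31ra, a receptor chain of interleukin-31, at 0.10 (SE 0.19). Without the third wild-type array they were 0.067 and -0.039, and Il31ra was 0.30 without the first.

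Among known inducers of Il6, Il11 and Lif, 3 of 7 genes had higher and 4 lower means (55.1% and 44.9% of all genes). Of the 7, 1 had an unadjusted p under 0.05 (10.6% of all genes). That gene, Tgfb1, read 9.75, 9.71 and 8.93 against 9.75, 10.08 and 10.32, a difference of -0.58 (SE 0.25), or -0.32 without the third null array. Tnf, the tumour necrosis factor gene, read 7.92, 8.10 and 6.14 against 7.75, 9.05 and 9.16, with overlap and a difference of -1.27 (SE 0.57), or -0.65 without the third null array. Both were lowest on the third null array, where Il6 was highest and the macrophage marker mean was lowest (7.37). The part of macrophages in the Tgfb1 and Tnf differences was not tested.

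The genes whose signals were most like those of 3 ligands over the 6 arrays were found by Pearson correlation, given without a test. For Il6 they were Fsip1 (r = 0.99), Efnb2 (an ephrin ligand, r = 0.99) and Rab36 (r = 0.99). Fsip1 was dim, at 5.28 to 5.47 on the 6 arrays, and its own difference was 0.12 (SE 0.10). It lies next to Thbs1 on chromosome 2, with 0 protein-coding genes between them, and the part of this position was not tested. Efnb2 differed by 0.33 (SE 0.12). For Il11 they were Itgb1 (the beta 1 integrin subunit), Wwox and Fbxo15, with r between 0.98 and 0.99 and differences of 0.05 to 0.13. Fbxo15 was dim too, at 3.55 to 3.67. For Osm they were Casz1, Xlr3a and Pecam1 (an adhesion molecule of endothelium and leukocytes), each with r = 0.98 and with differences of -0.36, -0.24 and -0.38. With only 6 arrays the named genes were not alone in such values. Of the 22180 genes, less the predicted and other symbols left out, 62 reached an r of at least 0.95 with Il6, 38 with Il11 and 26 with Osm.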

How the data were processed

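For each of 6 arrays the authors deposited 41345 log2 probe set signals. The submitters' processing notes name Partek and RMA, with no version, setting or genome build given in the labels or the file. That the scale is log2 and the arrays are normalized was judged from the values (1.83 to 14.2, array medians 5.25 to 5.32). Per the labels' protocols 150 ng of total RNA was labelled. In the platform's annotation 23521 probe sets had 1 symbol, 1814 had several and 16010 had none. Only those with 1 symbol were used, with the brightest probe set per gene and no intensity filter. Correlations between arrays ran from 0.978 to 0.988, so no array repeated another.

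Groups were compared with limma 3.58.1 in R 4.3.3 (lmFit and eBayes, all 6 arrays, no covariate, two-sided, Benjamini-Hochberg over all genes), a procedure tested on simulated data. Figures were drawn with matplotlib 3.10.9. Errors are limma's SE and 95% intervals. Precision is limited by the number of arrays. The members and lists were chosen with earlier results of these data known. Named were all members, the 2 genes of smallest p per pathway list, Thbs1, Cd68, Tyrobp, Acta2, Krt14, Col1a1, Trp63 (for its low signal) and the 3 genes most like Il6, Il11 and Osm, leaving out predicted, olfactory, vomeronasal, microRNA and small nucleolar symbols. Bcl3, Cebpd, Cebpb, Pim1, Hp, Lbp, Il27, Mylk, Krt17, Col1a2, Col3a1, Emcn, Tek and Egfl7, and those named only in a plot, were added after their values were seen. Alternatives are given in the closing section.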

Additional observations from a re-analysis of the deposited data

How the results depend on the processing

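Under 16 alternatives 0 family genes passed an adjusted p of 0.05, and every family gene other than Lifr kept the sign of its difference (Osm over 15, since it is too dim for the fit without dim genes). The difference of Lifr was -0.25 without the second null array, -0.30 without the second and -0.11 without the third wild-type array, and ran up to 0.70 with 1 array left out. The cause was not tested. Il6 kept an unadjusted p under 0.05 in 16 of 16 alternatives, at 0.48 to 0.74. Socs3 kept it in 15, at 0.42 to 0.77, and lost it at its dimmer probe set (0.40), an alternative added after the data were seen. Stat3 kept it in 9 of 16 and Osm in 8 of 15. The number of family genes with such a p, 4 of 10, was 7 with array weights (14.5% of all genes), 2 with the ordinary linear model (8.58%) and 2 to 6 with 1 array left out (6.70% to 12.3%), against 10.6% of all genes with all arrays. The median difference was 0.20 to 0.56 with 1 array left out. Over all genes the count past an adjusted p of 0.05 was 2 with every deposited probe set tested and 0 to 34 with 1 array left out, 34 without the second null and 1 without the first wild-type array.

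With the replicate number as a block 2 family genes, Il6 and Socs3, had an unadjusted p under 0.05, where 9.99% of all genes did. Beyond the number, the labels give no link between same-numbered arrays. The deviations of same-numbered arrays from their group means correlated at -0.14, 0.18 and -0.16. Of the 6 arrays 2 correlated best with their own number in the other group. With so few arrays per group these values cannot decide whether same-numbered arrays were paired by design, and neither can the block.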
